A study of Danio rerio with 12 samples.

Results

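The genes described here encode the DNA replication machinery of the early zebrafish embryo: the MCM helicase subunits mcm2, mcm3, mcm4, mcm5, MCM6 and mcm7, the sliding clamp pcna, and the ribonucleotide reductase subunits rrm1 and RRM2. They were chosen by name and were found by matching their symbols, whatever the case, to the Ensembl gene IDs of the deposited tables. Of the 9 symbols 7 matched, on 9 of the 33737 gene IDs, because MCM6 and RRM2 each stood on 2 IDs. The IDs of mcm2 and mcm7 were not among those of the tables, and both genes were not analysed here. RPKM is the number of reads per length of gene and per size of library. An ID was kept where any of the 6 tables gave it an RPKM of 1 or more, which 17053 IDs and all 9 member IDs met.

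Whole embryos were collected at 2, 4 and 6 hours post fertilization (hpf) from controls, labelled wild type and ddx3xb+/+, and from mutants, labelled homozygous for the mutation (Ddx3xb-/Ddx3xb-). Polyadenylated RNA was sequenced from 2 biological replicates per genotype and time, 12 samples in all. The labels do not describe the lesion, the genotype of the mothers or the number of embryos per library. The deposited data are 6 tables with 1 RPKM value per gene for each genotype and time, so each level stands for a group of 2 samples as the authors gave it, with no standard deviation and no p-value.

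The MCM2-7 proteins form the ring-shaped helicase that is loaded on replication origins during licensing and unwinds DNA ahead of the fork. PCNA encircles DNA behind it and tethers polymerases and repair factors, while ribonucleotide reductase, made of large RRM1 and small RRM2 subunits, makes the deoxyribonucleotides that polymerases use. Zebrafish embryos run through rapid cleavage cycles on RNA and protein stored in the egg, before their own genome becomes active and the cycles lengthen. Xenopus embryos use separate maternal and zygotic forms of MCM3 and MCM6. The RefSeq gene table for zebrafish likewise lists the synonyms MCM3m for mcm3l, MCM3z for mcm3, MCM6m for mcm6l and MCM6z for mcm6. It links none of them to an Ensembl ID, so neither MCM6 ID could be given either name.

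The targeted gene ddx3xb, coding for an RNA helicase of the DEAD-box family, stood in mutants at 0.215% of the control value at 2 hpf, 5.93% at 4 hpf and 25.2% at 6 hpf. Summed over 5 egg RNAs (buc, DAZL, BTG4, GDF9, nanog), RPKM was 1698, 1503 and 56.9 in controls at 2, 4 and 6 hpf, and 1434, 1358 and 537 in mutants, with all 5 higher in mutants at 6 hpf. Summed over 3 gastrula genes (msgn1, SOX2, cdx4) it was 0.439, 1.29 and 378 in controls and 3.58, 5.51 and 46.1 in mutants, with all 3 lower in mutants at 6 hpf. Of 4 early zygotic genes (mxtx2, vgll4l, tbx16, krt4) all were lower in mutants at 4 hpf, while at 6 hpf 3 were higher in mutants and 1 (krt4) lower. At 2 hpf tbx16 and vgll4l were listed at 0 in mutants, and mxtx2 was at 0.512 RPKM there against 0.0690 in controls. If each table is a plain mean of 2 libraries, the steps between low values give library depths of 37.8 to 79.2 M reads. Among genes with 20 to 150 reads in the 2 libraries together, 20.6% to 21.7% in the control groups, and 32.5% to 36.6% in the mutant groups, then differed by at least 1 log2 between the 2 libraries of a group. Counting noise at so few reads was not separated from differences between replicates. The 2 depths of a group were least alike in mutants, at 79.2 and 38.8 M reads at 4 hpf and 73.0 and 41.5 M at 6 hpf. No member was among the genes whose reads could be recovered, so the spread behind their own values is not known.

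MCM3, a helicase subunit, was nearly undetected at 2 hpf and abundant at 6 hpf in both genotypes. The RPKM of MCM3 (ENSDARG00000024204) was 0.185 at 2 hpf, 5.28 at 4 hpf and 43.0 at 6 hpf in controls. In mutants MCM3 was at 0.129, 2.79 and 30.1, below the control value at each time. On the log2(RPKM + 1) scale, used for all differences here and understating those of low genes, mutants differed from controls by -0.07, -0.73 and -0.50. None of these passed the call threshold of 1 log2, which is a rule of size and not a test.

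The paralog mcm3l (ENSDARG00000037532), which is not a member, ran the other way. Its RPKM in controls was 63.2, 52.4 and 3.13 at 2, 4 and 6 hpf, and 71.7, 53.1 and 22.2 in mutants. At 6 hpf it was 7.09 times as high in mutants, a log2 difference of 2.49. MCM3 held 93.2% of the summed RPKM of both genes in controls at 6 hpf but 57.6% in mutants, from 0.292% and 0.180% at 2 hpf. The sum itself was 63.3, 57.7 and 46.2 in controls against 71.8, 55.9 and 52.3 in mutants. At 6 hpf its log2 difference was 0.18 as deposited and -0.18 after trimmed-mean rescaling of the tables.

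MCM4 and MCM5, also helicase subunits, stayed within 1 log2 in every comparison of genotype or time. MCM4 (ENSDARG00000040041) was at 77.6, 63.2 and 38.8 RPKM in controls and at 58.7, 57.0 and 50.1 in mutants at 2, 4 and 6 hpf. The genotype differences of MCM4 were -0.40, -0.15 and 0.36 log2, and the last was 0.00 after trimmed-mean rescaling. MCM5 (ENSDARG00000019507) was at 81.9, 102 and 94.0 in controls and 74.5, 88.2 and 70.7 in mutants, with differences of -0.13, -0.20 and -0.41. Mutants thus lay below controls for MCM5 at all 3 times, by less than the threshold.

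The RNA of MCM6, a helicase subunit too, lay on different gene IDs at different times, and the later ID held a smaller share in mutants. The first MCM6 ID (ENSDARG00000033231) was at 106, 125 and 28.4 RPKM in controls at 2, 4 and 6 hpf and at 102, 141 and 78.3 in mutants. The second MCM6 ID (ENSDARG00000057683) was at 0.552, 11.4 and 88.5 in controls and at 0.0348, 2.16 and 35.5 in mutants. The first ID was the higher of the pair at 2 and 4 hpf in both genotypes. At 6 hpf the second was the higher in controls, while in mutants the first still stood above it.

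The second MCM6 ID held 0.517%, 8.39% and 75.7% of the MCM6 sum in controls at 2, 4 and 6 hpf. In mutants it held 0.0341%, 1.51% and 31.2%. The genotype differences of the first ID were -0.06, 0.17 and 1.43 log2, and those of the second were -0.58, -1.98 and -1.30. At 6 hpf mutants thus had 2.76 times the control RPKM of the first MCM6 ID and 0.401 times that of the second. The sum of both IDs was 107, 136 and 117 in controls and 102, 143 and 114 in mutants, so it differed by -0.06, 0.07 and -0.04 log2. The sources used here do not say how reads that match both copies were counted. The split between the IDs of a symbol, or between MCM3 and mcm3l, is therefore uncertain. So is the sum, if such reads were dropped or counted for both. In mutants at 2 hpf the second MCM6 ID held only 0.0341% of the sum, so hardly any reads of the first were counted on it there. The egg and gastrula RNAs given above also differed at 6 hpf, and their part in the MCM3 and MCM6 values was not tested. In RNA from whole embryos, fewer cells of a kind and less RNA per cell cannot be told apart, and polyadenylated RNA does not tell amount from tail length.

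**Figure D1:**
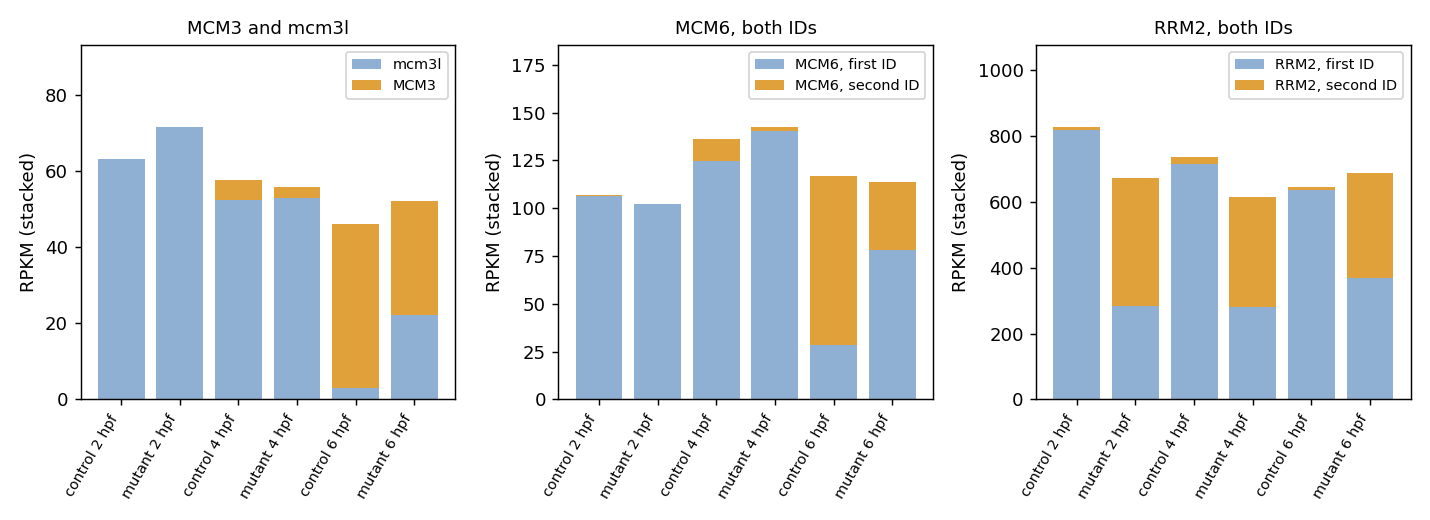
Stacked RPKM (vertical axis, linear from 0) of MCM3 with its paralog mcm3l, of the first and second MCM6 IDs and of the first and second RRM2 IDs, with 1 bar for each genotype and time. The second MCM6 ID makes up 75.7% of the control bar and 31.2% of the mutant bar at 6 hpf, and the second RRM2 ID makes up 1.26% to 2.81% of the control bars and 46.4% to 57.8% of the mutant bars.

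RRM1, the large subunit of ribonucleotide reductase, stayed within 1 log2 throughout. RRM1 (ENSDARG00000014017) was at 112, 133 and 111 RPKM in controls and at 101, 121 and 81.9 in mutants at 2, 4 and 6 hpf. Its genotype differences were -0.15, -0.13 and -0.44 log2, below 0 at each time.

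RRM2, the small subunit, lay almost wholly on its first ID in controls and on both IDs in mutants, at all 3 times. The first RRM2 ID (ENSDARG00000020711) was at 818, 715 and 635 RPKM in controls and at 283, 282 and 369 in mutants. Its differences between mutants and controls were -1.53, -1.34 and -0.78 log2 at 2, 4 and 6 hpf. The last was short of the threshold as deposited, at -1.15 after trimmed-mean rescaling and at -0.48 with quantile normalization. The second RRM2 ID (ENSDARG00000078069) was at 10.4, 20.7 and 10.9 in controls and at 388, 333 and 319 in mutants. The mutant level of the second RRM2 ID was thus 37.1, 16.1 and 29.2 times the control level, or 5.09, 3.95 and 4.75 log2 higher.

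The second RRM2 ID held 1.26%, 2.81% and 1.69% of the RRM2 sum in controls and 57.8%, 54.1% and 46.4% in mutants. The sum of both IDs was 829, 736 and 646 in controls and 671, 615 and 688 in mutants. Its genotype differences were -0.30 and -0.26 log2 at 2 and 4 hpf, and at 6 hpf 0.09 as deposited, -0.28 with trimmed-mean rescaling and 0.37 with quantile normalization. The RRM2 sum stood at 7.38, 5.55 and 5.81 times RRM1 in controls and at 6.62, 5.08 and 8.39 times in mutants. Already at 2 hpf, when the 4 early zygotic genes summed to 0.489 RPKM in controls and 0.715 in mutants, the second RRM2 ID was at 388 in mutants. RefSeq gives the synonym rrm2 to both rrm2l and rrm2b, so it did not settle the current name of either RRM2 ID. The symbol RRM2B itself stood on a separate ID, described below.

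PCNA, the sliding clamp, was among the most abundant RNAs in all 6 groups, above 99.2% to 99.5% of the filtered genes. PCNA (ENSDARG00000054155) was at 408, 410 and 728 RPKM in controls and at 349, 334 and 447 in mutants. It differed from controls by -0.23, -0.29 and -0.70 log2, and at 6 hpf the difference was -1.07 after trimmed-mean rescaling. With quantile normalization PCNA fell short of the threshold at 6 hpf. Its level in controls was much the same at 2 and 4 hpf and 1.78 times as high at 6 as at 4 hpf. That difference was 0.83 log2 as deposited, 1.58 with trimmed-mean rescaling and 0.26 with quantile normalization. In mutants PCNA was 1.34 times as high at 6 as at 4 hpf.

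**Figure D2:**
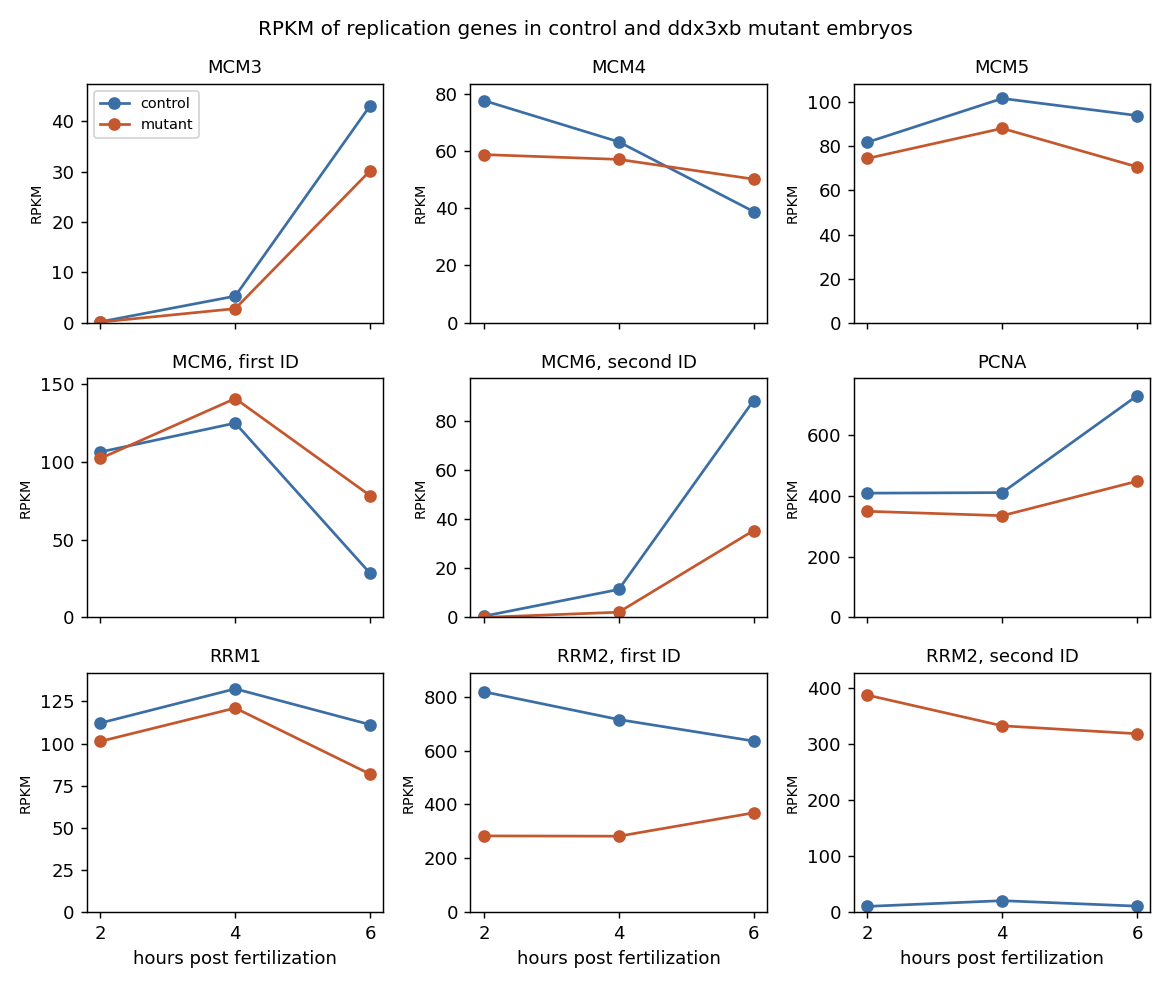
RPKM (vertical axis, linear from 0, its range set separately in each panel) against hours post fertilization for the 9 member IDs, with controls in blue, mutants in orange and 1 point for each deposited group value. The mutant line of the second RRM2 ID lies at 319 to 388 against 10.4 to 20.7 in controls, and those of MCM3, MCM5, the second MCM6 ID, PCNA, RRM1 and the first RRM2 ID lie below the control line at all 3 times.

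Counted at the threshold of 1 log2 as deposited, 2 or 3 of 9 member IDs differed by genotype at each time, all of them MCM6 and RRM2 IDs. At 2 hpf 1 of 9 member IDs was higher in mutants (the second RRM2 ID) and 1 was lower (the first), against 4.14% higher and 3.34% lower among all filtered genes. At 4 hpf 1 was higher and 2 were lower (the first RRM2 ID and the second MCM6 ID), against 3.79% and 6.31%. At 6 hpf 2 were higher (the first MCM6 ID and the second RRM2 ID) and 1 was lower (the second MCM6 ID), against 18.3% and 8.91%. With the IDs of a symbol summed, 0 of the 7 genes passed at any time. That sum joined the 2 MCM6 IDs but not MCM3 and mcm3l, whose symbols differ. The share of all genes passing with IDs summed was not computed. With trimmed-mean rescaling 2 of 9 member IDs were higher and 3 lower at 6 hpf, as PCNA and the first RRM2 ID then passed too. The shares of all filtered genes were then 13.8% higher and 15.9% lower. With quantile normalization neither of these 2 passed. There 2 IDs were higher and 1 lower at 6 hpf, against 14.7% and 14.2%.

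The differences were mostly small and below 0. Of the 9 IDs 8 were below 0 at 2 hpf, 7 at 4 hpf and 6 at 6 hpf, against 44.8%, 49% and 40.1% of all filtered genes. The member medians were -0.15, -0.20 and -0.44 log2, and those of all filtered genes 0.01, 0.01 and 0.22. At 6 hpf the median of all filtered genes moved to -0.04 with trimmed-mean rescaling and to 0.03 with quantile normalization. The member medians above are as deposited, so they are not on the scale of these 2 values. Member values moved too. The median of the 5 MCM IDs alone was -0.41 as deposited, -0.77 with trimmed-mean rescaling and -0.38 with quantile normalization. The range from the 5th to the 95th percentile of all filtered genes ran from -0.81 to 0.92 at 2 hpf, -1.13 to 0.90 at 4 hpf and -1.31 to 1.73 at 6 hpf. The second RRM2 ID lay above it at every time, the first below it at 2 and 4 hpf, and the second MCM6 ID below it at 4 hpf.

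**Figure D3:**
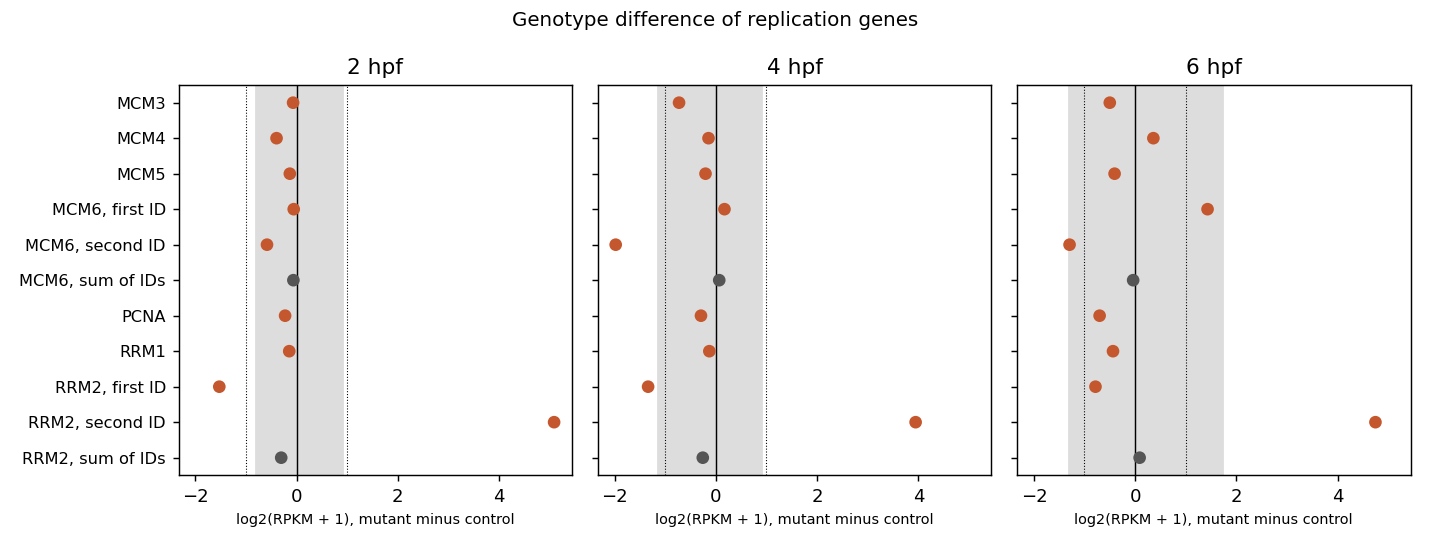
Difference of log2(RPKM + 1) between mutants and controls (horizontal axis) for the 9 member IDs in orange and the MCM6 and RRM2 sums in grey, at 2, 4 and 6 hpf. The grey band spans the 5th to 95th percentile of all 17053 filtered genes and dotted lines mark 1 log2 either way; both sums lie between -0.30 and 0.09 at all 3 times, and the RRM2 sum at 6 hpf, here 0.09, is -0.28 with trimmed-mean rescaling.

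With time, MCM3 and the second MCM6 ID were the members that were higher by at least 1 log2 at each later time in both genotypes. From 2 to 4 hpf in controls these 2 of 9 were higher, to 28.6 and 20.7 times the earlier RPKM, and 0 were lower, against 8.79% and 2.84% of all filtered genes. In mutants the same 2 were higher, by 1.75 and 1.61 log2, against 3.21% higher and 0.264% lower. From 4 to 6 hpf in controls they were higher by 2.81 and 2.85 log2, and the first MCM6 ID was lower, at 0.228 times its level at 4 hpf, against 17.3% higher and 35.1% lower. In mutants from 4 to 6 hpf they were higher by 3.04 and 3.53 log2, against 12.3% higher and 18.9% lower, and the first MCM6 ID was at -0.84, within the threshold.

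The other members kept within 1 log2 of the preceding time as deposited, but with trimmed-mean rescaling PCNA passed the threshold from 4 to 6 hpf in controls, at 1.58 log2. From 4 to 6 hpf MCM5, RRM1 and the first RRM2 ID differed in controls by -0.11, -0.25 and -0.17 as deposited, and by 0.63, 0.50 and 0.58 with trimmed-mean rescaling, so their direction is not settled. The MCM4 difference in that interval was likewise -0.69 as deposited and 0.05 with rescaling. The median of all filtered genes between these tables was -0.52 as deposited and 0.01 with rescaling.

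At the threshold of 1 log2 as deposited, the genotype difference itself shifted between times only for MCM6 and RRM2 IDs. From 2 to 4 hpf it moved down by at least 1 log2 for the second MCM6 ID (-1.39) and the second RRM2 ID (-1.14), and up for 0 of 9, against 4.53% and 1.38% of all filtered genes. The shift of the second MCM6 ID rested on the pseudocount of 1, since its RPKM at 2 hpf was 0.552 and 0.0348. With a pseudocount of 0.1 it fell short of the threshold. In plain RPKM the mutant level of this ID was 0.0630, 0.188 and 0.401 times the control level at 2, 4 and 6 hpf, so that ratio did not move down. From 4 to 6 hpf it moved up for the first MCM6 ID (1.26) and down for 0, against 17.9% and 8.19%, and the shift of the first MCM6 ID was 0.93 with trimmed-mean rescaling and 0.98 with quantile normalization. No test of these shifts was possible. The comparisons share control or mutant tables and are given side by side for that reason.

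The mutant value at 6 hpf lay between the control values at 4 and 6 hpf for 5 of 9 member IDs, namely MCM3, MCM4, both MCM6 IDs and PCNA. That was so for 65.5% of all filtered genes and for 53 of 82 other replication gene IDs, so the members' share was no higher than the background. MCM5, RRM1 and the first RRM2 ID lay below both control values, and the second RRM2 ID above both. These counts are as deposited. With trimmed-mean rescaling MCM4 was at 55.1 and 57.1 in controls at 4 and 6 hpf. In mutants at 6 hpf it was then at 57.2, just above both. The share of all filtered genes was not computed with rescaling.

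The other genes of replication were described through 10 lists of 121 symbols, from MCM paralogs and origin licensing to polymerases and S phase cyclins. Of the symbols 91 matched, on 94 IDs, 85 of them no members, and 82 of those passed the filter. At 2 hpf 1 of these 82 was higher in mutants and 1 lower, at 4 hpf 2 and 2, and at 6 hpf 13 and 4. The shares of all filtered genes higher and lower were those given for the members, at 6 hpf 18.3% and 8.91%. Their medians were -0.07, 0.14 and 0.16 log2. At 6 hpf trimmed-mean rescaling gave 7 higher and 10 lower with a median of -0.18, against 13.8% and 15.9% of all filtered genes. Quantile normalization gave 8 and 8 with a median of -0.04, against 14.7% and 14.2%.

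In the list of origin recognition and licensing, 3 genes were higher in mutants at 6 hpf. ORC6, a subunit of the origin recognition complex, was at 256, 214 and 30.8 RPKM in controls and 237, 214 and 93.1 in mutants. GMNN (geminin), which binds the licensing factor CDT1, was at 491, 414 and 66.8 in controls and 420, 390 and 189 in mutants, and ORC1, another subunit, at 74.5, 61.7 and 10.6 and at 66.9, 72.3 and 27.8. These 3 of the 7 genes in the list passed the threshold at 6 hpf, at 1.57, 1.49 and 1.31 log2. Of the 7, 0 were lower, against 18.3% higher and 8.91% lower among all filtered genes. The median of the list was 0.82. After trimmed-mean rescaling it was 0.45 with 2 higher, against 13.8% of all filtered genes, and ORC1 was at 0.97. From 4 to 6 hpf 5 of the 7 were lower by at least 1 log2 in both genotypes, against 35.1% of all filtered genes in controls and 18.9% in mutants, with a median of -1.77 in controls and -1.05 in mutants. With trimmed-mean rescaling 4 were lower in controls (median -1.07) and 1 in mutants (median -0.72), against 21.6% and 7.66% of all filtered genes. With quantile normalization 5 were lower in controls (median -1.22) and 4 in mutants (median -1.08), against 25.7% and 12.5%.

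In the nucleotide supply list RRM2B, the DNA damage-inducible small subunit of ribonucleotide reductase in mammals, was at 27.1, 35.0 and 20.4 RPKM in controls. In mutants RRM2B was at 9.81, 10.3 and 6.71, with log2 differences of -1.38, -1.67 and -1.48. Like the first RRM2 ID it was thus lower in mutants at each time. Of the 11 IDs of this list, the members included, 4 were higher and 1 lower at 6 hpf, against 18.3% and 8.91% of all filtered genes. With trimmed-mean rescaling 2 were higher and 3 lower, against 13.8% and 15.9%. Besides the second RRM2 ID the higher ones were DCTD (dCMP deaminase, 16.4 RPKM in controls and 48.4 in mutants), cmpk (UMP-CMP kinase, 20.8 and 48.4) and TYMS (thymidylate synthase, 1.14 log2 higher). With trimmed-mean rescaling and quantile normalization cmpk (0.83 and 0.91) and TYMS (0.80 and 0.88) fell short of the threshold.

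Of 11 IDs of the clamp and its loaders 1 was higher in mutants at 2 hpf (DSCC1) and 2 at 4 hpf (DSCC1 and RFC1), against 4.14% and 3.79% of all filtered genes, and 0 were lower. DSCC1, a subunit of an alternative clamp loader with a role in sister chromatid cohesion, was at 8.20, 10.5 and 6.12 RPKM in controls and at 21.9, 31.8 and 7.40 in mutants. Its differences were 1.32 and 1.51 log2 at 2 and 4 hpf. RFC1, the large subunit of the main clamp loader, was at 27.2, 9.78 and 4.77 in controls and 34.3, 22.1 and 11.2 in mutants, higher by 1.10 log2 at 4 hpf and 1.07 at 6 hpf. At 6 hpf RFC1 fell short of the threshold with trimmed-mean rescaling (0.78) and quantile normalization (0.86). PCNA itself was at -0.29 and -0.70 at 4 and 6 hpf.

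Among S phase cyclins and E2F factors, 1 of 12 was higher and 1 lower at 6 hpf, against 18.3% and 8.91% of all filtered genes. Trimmed-mean rescaling left 1 higher with 2 lower, against 13.8% and 15.9% of all filtered genes. Quantile normalization left 1 higher with 3 lower, against 14.7% and 14.2%. CCNA1, a cyclin A of the germ line and early embryo in vertebrates, was at 875, 662 and 32.5 RPKM in controls and 624, 512 and 211 in mutants. The transcription factor gene e2f2 was at 6.13, 6.29 and 27.9 in controls and 2.77, 3.23 and 5.83 in mutants, a difference of -2.08 log2 at 6 hpf. E2F7, an E2F factor that acts as a repressor, was at 0.0511, 5.92 and 9.87 in controls and 0.0357, 0.763 and 13.5 in mutants, a difference of -1.97 log2 at 4 hpf.

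In the lists of helicase partners, MCMBP, which binds MCM proteins, was 1.02 log2 higher in mutants at 6 hpf, and it and mcm3l were the 2 of 5 other MCM genes past the threshold, against 18.3% of all filtered genes. With trimmed-mean rescaling and quantile normalization MCMBP was at 0.68 and 0.76, short of it. Of 11 genes of helicase assembly and firing recql4 was higher (1.54) and CDC45, a partner of the moving helicase, lower (-1.09). The shares of all filtered genes higher and lower at 6 hpf were 18.3% and 8.91%, here and for the lists that follow. With trimmed-mean rescaling 1 of these 11 was higher and 2 were lower, against 13.8% and 15.9% of all filtered genes. Of 6 genes in the list of replication-coupled chromatin assembly and DNA methylation, slbp2 was higher (2.01). The histone chaperone gene RBBP4 was lower (-1.11, or -0.95 with quantile normalization). Of 10 polymerase and primase genes POLD1, the catalytic subunit of polymerase delta, was higher (1.18) and 0 were lower. Of 13 genes of single-strand binding and Okazaki fragment processing 0 passed either way, and with trimmed-mean rescaling 1 was lower. With trimmed-mean rescaling, and with quantile normalization, the polymerase list had 0 higher and 2 lower, and POLD1 was at 0.85 and 0.93. The shares of all filtered genes higher and lower were 13.8% and 15.9% with trimmed-mean rescaling. They were 14.7% and 14.2% with quantile normalization.

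**Figure D4:**
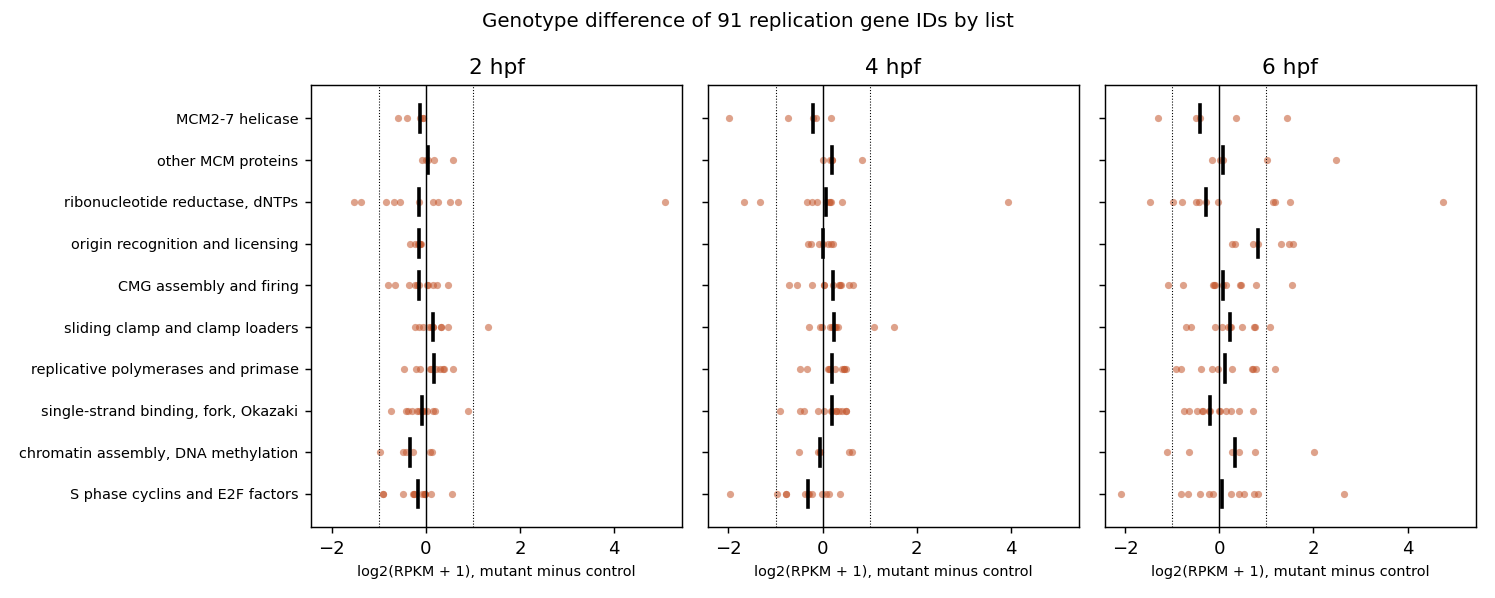
Difference of log2(RPKM + 1) between mutants and controls (horizontal axis) for the replication gene IDs of the 10 lists, members included, at 2, 4 and 6 hpf, with 1 point per gene, black bars at list medians and dotted lines at 1 log2 either way. The median of the origin licensing list at 6 hpf, 0.82, lies furthest from 0 among the 10 lists at that time as deposited. With trimmed-mean rescaling it is 0.45. The medians of the MCM2-7 helicase (-0.77), ribonucleotide reductase and dNTP supply (-0.64) and single-strand binding (-0.55) lists then lie further from 0. With quantile normalization the median of the licensing list is 0.70, again the furthest from 0 among the 10 lists.

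Genes near the members in pattern were taken from 9350 filtered genes that had a symbol and an RPKM of 5 or more in any table. Likeness was the Euclidean distance of centred log2(RPKM + 1) values over the 6 tables. Nearest to the mean of MCM3, MCM4 and MCM5 were ELF2 (0.19), SYAP1 (0.23), MRPL51 (0.26), CCT3 (0.28) and pbrm1l (0.32). That mean joins unlike courses, with MCM3 far higher at 6 than at 2 hpf and MCM4 and MCM5 within 1 log2 between successive times, so these genes need not resemble any of the 3. Among the nearest to the first MCM6 ID were zmp:0000000662 (0.10) and AAGAB (0.20). Nearest to the second MCM6 ID were si:ch1073-164k15.3 (0.73), cldnb (0.81) and mgll (0.83).

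For the first RRM2 ID the nearest were MYO10 (0.33), SMAD4 (0.44) and POFUT2 (0.45). SMAD4 was at 18.0, 18.2 and 12.8 RPKM in controls and 7.17, 7.07 and 6.90 in mutants. For the second RRM2 ID the nearest genes were further off, at 1.61 for GNB3, 2.16 for si:ch211-174d12.4 and 2.42 for pdx1. GNB3 was at 0.121, 0.380 and 0.0510 in controls and 10.7, 10.6 and 11.9 in mutants, and pdx1 at 2.61, 3.95 and 2.95 and at 33.2, 34.7 and 16.1. The large difference at 2 hpf was thus seen in these genes as well as in RRM2, by a choice of genes that rested on the same values.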

How the data were processed

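The authors deposited RPKM values, 1 per gene for each of 6 groups of 2 samples, and per the labels' protocols the RNA was TRIzol-extracted and poly(A)-selected before stranded library preparation. cutadapt 1.13, Trimmomatic 0.36, HISAT2 2.0.5, SAMtools 1.9 and the build Zv9 are named without roles in the labels, per the submitters' processing notes. How reads were counted, on which annotation and whether by strand is not given in the sources used here. Tables were assigned to groups by genotype and time in their names. Symbols came from a gene name table, which named 21939 of the 33737 IDs.

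From these values differences of log2(RPKM + 1) were computed in Python 3.11.15 with pandas 2.3.3, over IDs that reached an RPKM of 1 in any table. A gene was counted as higher or lower from 1 log2. With 1 value per group no test was possible, and the depth of the members' values is not given. Trimmed-mean rescaling dropped 30% of log ratios and 5% of levels at each end. Whole reads behind low values were sought, within a relative tolerance of 6e-06, as sums of reads of 2 libraries. Lengths were found for 6829 genes, 0 of them members, by steps tested on simulated data, and depths and lengths could share a common factor.

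The members and lists were chosen with earlier results of these data known. The symbols and1, which in zebrafish names actinodin 1, and treslin, an alias, were taken out of the lists after values were seen. Named genes were all member IDs, all genes of each list past 1 log2 by genotype (at most 4 per direction) and the 3 or 5 nearest in pattern, of which 1 is not reported here. Other genes of the lists are not described singly.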

Additional observations from a re-analysis of the deposited data

Results flagged for a closer look

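For the first MCM6 ID the genotype difference had opposite signs at 2 and 6 hpf. It was -0.06 log2 at 2 hpf and 1.43 at 6 hpf, so the 2 values lay 1.49 apart, and this difference was not tested. The value at 2 hpf was near 0, and the sum of both MCM6 IDs differed by -0.06 and -0.04 at these times.

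For the second RRM2 ID the difference between 4 and 2 hpf had opposite signs in the 2 genotypes, at 0.92 log2 in controls and -0.22 in mutants. The mutant value minus the control value was -1.14, and this difference was not tested either. In controls the level was 10.4 and 20.7 RPKM at 2 and 4 hpf, and in mutants 388 and 333.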

How the results depend on the processing

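With the IDs of a symbol summed, the members past 1 log2 numbered 0 by genotype at 2, 4 and 6 hpf (2, 3 and 3 with IDs apart). They numbered 1 in each comparison of successive times in controls (2 and 3 with IDs apart) and in mutants (2 and 2). For both shifts of the genotype difference they numbered 0 (2 and 1). The 1 counted with time was MCM3, which was not summed with its paralog mcm3l. The share of all genes passing with IDs summed was not computed. Trimmed-mean rescaling gave 5 members by genotype at 6 hpf (2 higher and 3 lower, against 13.8% and 15.9% of all filtered genes). Quantile normalization gave 3 (2 higher and 1 lower, against 14.7% and 14.2%). For the shift from 4 to 6 hpf trimmed-mean rescaling gave 0, against 12.8% up and 14% down. Quantile normalization also gave 0 for that shift, against 14.1% and 14.3%. Trimmed-mean rescaling further gave 4 members (3 higher, PCNA added, and 1 lower) from 4 to 6 hpf in controls, against 28% and 21.6%. A pseudocount of 0.1 gave 1 member for the shift from 2 to 4 hpf (down, against 10.5% of all filtered genes). For the shift from 4 to 6 hpf it gave 2 (both up, against 31.1%). The cause was not tested. No filter, and an RPKM of at least 5, left each member value where it was. At the pseudocount of 0.1 the second MCM6 ID was at -2.27 log2 at 2 hpf, where its RPKM was 0.552 and 0.0348, and its shifts were -0.08 and 1.04. Leaving out a replicate could not be run, since the tables hold no value per library. No paired analysis was possible because each group has 1 deposited value. The depth of the members' own values and their spread between replicates limit every difference given here.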
